A study of Homo sapiens with 26 samples.

Results

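The genes of the progesterone receptor (PR, gene PGR) and of the estrogen receptor alpha (ER, gene ESR1) were examined for binding of their own products in breast cancer cells. A site was taken as a member when it overlapped the gene span, widened by 200 kb on each side, in any of 10 lists of called sites. The spans were chr11:100900355-101000544 for PGR and chr6:151977830-152424409 for ESR1 in the hg19 build. Of 87206 sites in the 10 lists, 42 (0.0482%) were members, 10 at PGR and 32 at ESR1.

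Binding had been mapped with ChIP-seq, in which DNA crosslinked to a protein is pulled down with an antibody and sequenced, in PR-deficient T47D cells and in T47D cells. T47D is an established breast cancer line of human origin that carries both receptors. All cells were kept without steroids for 48 h and then exposed for 45 min to hormone or vehicle. The groups with a list were PR-deficient ER with E2+R5020, with E2 and with R5020; T47D ER and T47D PR with the same 3 treatments; and reChIP, a pull-down with the ER antibody followed by one with the PR antibody, from T47D cells with E2+R5020. E2 is estradiol, the main natural estrogen, at 10 nM, and R5020 is a synthetic progestin, also at 10 nM. The labels do not say how the PR-deficient cells were made or whether they are a clone. Each group held 1 library, so no value below has a replicate error and no difference between groups was tested. The score of a site is the authors' own value in a unit not given in the sources used here, and it was used only to order sites within a list.

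ER and PR are nuclear receptors, transcription factors that bind DNA once their steroid ligand is present and recruit coactivators or corepressors. ER binds palindromes of the hexamer AGGTCA, and PR binds palindromes of a different hexamer that the glucocorticoid and androgen receptors also use. PGR is a classical estrogen-induced gene of the breast and its product is scored in tumours as a sign of working ER. ESR1 encodes ER itself, is transcribed from several promoters, and is known to be regulated by its own product in breast cancer cells.

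The stretches before 2 of the annotated starts are shown because listed sites lay near them, but neither stretch is shown to be bound. The PGR site lay from 103 to 303 bp past the 5′ end of the hg19 span, at the lowest score of its list. The ESR1 site, of reChIP, began 151.03 kb from the 5′ end of its span, against 151.01 kb for the start. By distance, both sites thus lay after the start. As stated below, the ESR1 reChIP sites are not shown to measure receptor binding to the gene. RefSeq, in build GRCh38.p14, has 3 PGR starts within 750 bp of each other and 6 ESR1 starts, the first and the last 152.4 kb apart. The PGR sequence covers the 250 bases before the first start, at chr11:101129814-101130063 on the minus strand, and the ESR1 sequence covers the 250 bases before start 5, counted from the most 5′ one, at chr6:151807432-151807681 on the plus strand. Both read 5′ to 3′, and capitals mark the 40 bases directly before the start.
PGR start 1: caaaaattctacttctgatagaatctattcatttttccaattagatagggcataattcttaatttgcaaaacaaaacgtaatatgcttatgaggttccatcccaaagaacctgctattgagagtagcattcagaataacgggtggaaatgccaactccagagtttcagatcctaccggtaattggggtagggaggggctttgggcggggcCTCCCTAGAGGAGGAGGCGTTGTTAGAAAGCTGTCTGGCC
ESR1 start 5: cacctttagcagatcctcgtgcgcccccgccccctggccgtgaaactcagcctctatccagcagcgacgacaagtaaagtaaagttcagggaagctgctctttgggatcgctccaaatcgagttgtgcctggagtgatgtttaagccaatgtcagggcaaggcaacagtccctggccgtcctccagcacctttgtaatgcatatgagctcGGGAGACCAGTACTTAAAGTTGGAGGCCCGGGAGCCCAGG
G and C made up 43.6% of the PGR stretch and 56.0% of the ESR1 stretch, beside a median of 58.0% over the 35116 promoters of the table. ESR1 start 5 lay 151.0 kb from the first in GRCh38.p14, and the most 5′ reChIP site in ESR1 began 151.0 kb from the 5′ end of the hg19 span. The spans agree in length for PGR, at 100190 bp in both builds, but the ESR1 record of GRCh38.p14 is 472948 bp long against 446580 bp for the hg19 span, so this distance places the site near that start without fixing its position to the base. In RefSeq, PGR lies between ARHGAP42 and TRPC6, and ESR1 lies between CCDC170 and SYNE1, which overlaps the ESR1 record.

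The sequences before and just after all 9 starts, 300 bases each (250 before the start and 50 from it on), were searched on both strands for 6 motifs. The letters were GGTCANNNTGACC for the estrogen response element, AGGTCA for its single hexamer, GNACANNNTGTNC for the progesterone response element, TGTTTAC and TGTTTGC for forkhead factors such as FOXA1, and TGANTCA for AP-1. The hexamer can overlap the full estrogen response element. None of the 9 promoters held any of the 6. The 9 are not all separate sequences, since PGR starts 2 and 3 lie 736 and 750 bp from the first and their windows largely overlap. Among all 35116 promoters, 0.0570% held the full estrogen response element, 13.8% the hexamer, 0.390% the progesterone response element, 3.42% TGTTTAC, 3.89% TGTTTGC and 7.71% the AP-1 motif. With 1 mismatch allowed in the full palindromes, 1 match appeared, to the progesterone response element and 78 bp before the first ESR1 start, a match that 8.15% of all promoters held. The absence of a match says only that these letters were not in these windows.

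The lists differ in what they can hold. They ranged from 4014 sites (T47D ER with E2) to 19220 sites (T47D ER with E2+R5020). Median width was 1329 bp in the PR-deficient E2+R5020 list, 1076.5 bp in the PR-deficient E2 list and 1171 bp in the T47D ER E2 list, but between 149 and 292 bp in the other 7. Scores moved in even steps, from 0.582 in the T47D ER E2 list to 8.66 in the reChIP list, and read depth is unknown. Per the labels, the vehicle library had been subtracted from each list, and the IgG control too for reChIP, so a place bound without hormone could be missing from the lists. Lists of 1 line and antibody share that vehicle library.

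At ESR1, the 32 members fell into 16 separate regions, or 14 when sites within 500 bp were merged, and came from 8 of the 10 lists. The gene body held 27 of them and the 200 kb upstream held 5, while the 200 kb downstream held none. By experiment, 16 came from PR-deficient ER, 6 from T47D ER, 2 from T47D PR and 8 from reChIP. The T47D ER list of R5020 and the T47D PR list of R5020 had no site there. By treatment, PR-deficient cells had 4 sites with E2+R5020, 6 with E2 and 6 with R5020, whereas T47D ER had 5, 1 and 0 and T47D PR had 1, 1 and 0 in the same order of treatments. These counts were read against windows of the same width tiled along the genome: of 3643 tiles, the share holding any site was 44.7%, 52.2% and 45.3% for the 3 PR-deficient lists, 88.6%, 40.8% and 36.5% for the T47D ER lists, 56.5%, 53.2% and 40.8% for the T47D PR lists, and 57.8% for reChIP, in the same order. Having some site in a window this wide was therefore common in every list. Tiles with at least as many sites as ESR1 were 15.1% for the 4 PR-deficient sites of E2+R5020, 13.1% for the 6 of E2, 11.4% for the 6 of R5020 and 7.71% for the 8 reChIP sites. For T47D ER with E2+R5020, whose list is the longest, 39.5% of tiles held 5 or more.

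**Figure D1:**
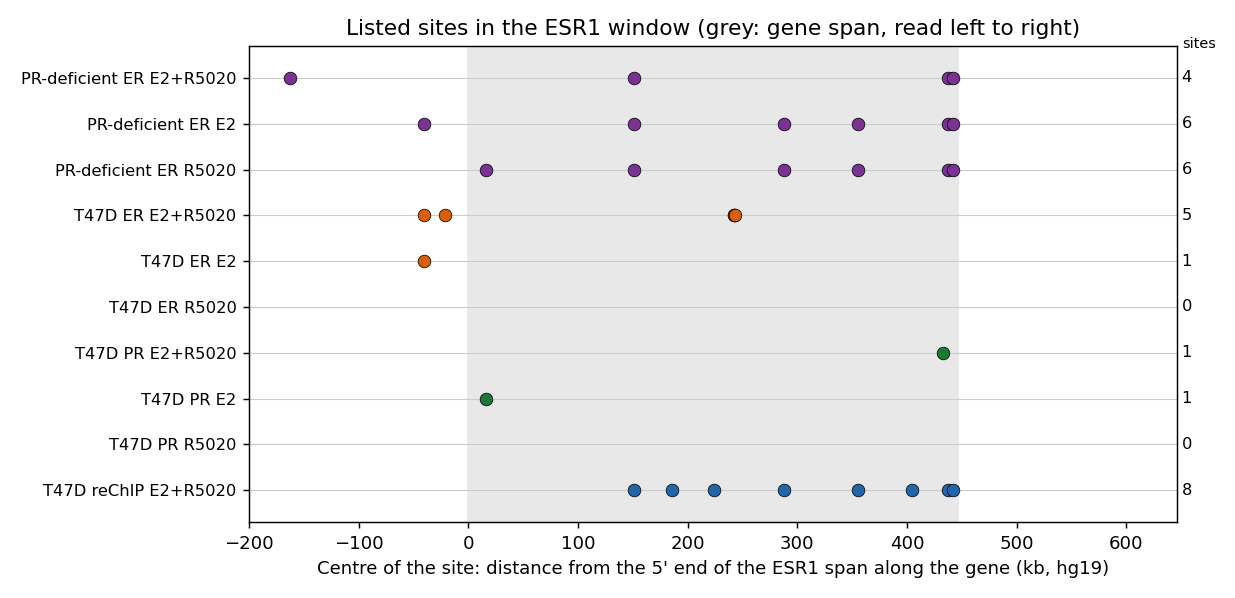
Each point is a listed site in the ESR1 window, placed by the distance of its centre from the 5′ end of the hg19 gene span (kb, x axis), with a row for each of the 10 lists, its number of sites at the right and the gene span in grey; the 3 adjacent sites near 242 kb of T47D ER with E2+R5020 overlie each other. The 8 reChIP sites spread from 151 to 442 kb, and 5 of them line up with PR-deficient ER sites while none lines up with a T47D ER or T47D PR site. Of the whole reChIP list, 13.7%, 15.6% and 8.35% overlapped PR-deficient ER with E2+R5020, E2 and R5020. With E2+R5020, 19.5% overlapped T47D ER and 12.2% T47D PR. The ESR1 reChIP sites, and PR-deficient sites at the same places, are not shown to measure receptor binding to the gene.

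The reChIP sites of ESR1 stood high within their own list. All 8 lay within the gene, and their scores ran from 233.85 to 337.78, or 27 to 39 steps, beside a median of 51.97 (6 steps) over the 9861 sites of that list. All 8 were therefore among the 522 sites (5.29%) at or above 233.85. In order along the gene, the first was chr6:152128860-152129620, which was 761 bp wide, scored 337.78 and tied for ranks 222 to 238. The second, chr6:152163713-152163941, scored 268.49, and the third, chr6:152201773-152202047, scored 233.85. Neither of these overlapped a site of any other list. The fourth, chr6:152265292-152265658, scored 329.12, and the fifth, chr6:152332769-152332952, scored 320.46. The sixth, chr6:152382106-152382278, scored 277.15 and again overlapped no site of another list. The last pair, chr6:152415498-152415720 and chr6:152419763-152420182, scored 268.49 and 294.47 and lay 8.80 and 4.44 kb inside the 3′ end of the gene. From the first to the eighth, the centres were 34.6, 38.1, 63.6, 67.4, 49.3, 33.4 and 4.36 kb apart, so high reChIP sites recurred along the gene body from 151 kb on and none lay in the first 151 kb. Of the 3643 tiles, 199 held a reChIP site of at least 233.85 and 13 held 8 or more, up to 57. The rest of chromosome 6 held 8 more such sites, none of them within 1 Mb of the gene span. The ESR1 coding sequence is known to be split over 8 exons. Exon positions of hg19 were not used here, so whether these sites lay on exons was not tested. Whether ESR1 cDNA or plasmid DNA in the libraries contributed to them, or to the PR-deficient sites at the same places, was not tested either, so these scores are not shown to measure receptor binding to the gene.

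Sites of the PR-deficient ER lists recurred at 5 of those 8 places, and the same limit holds for them. These 5 regions held 13 of the 16 PR-deficient members of ESR1, namely 3 with E2+R5020, 5 with E2 and 5 with R5020, together with 5 reChIP members. None of the 8 T47D ER and T47D PR members of ESR1 lay in them, a count set beside whole-list shares below. At the region 151 kb from the 5′ end, the sites were 1632 bp (score 70.12, 15.1% of the list at or above) in PR-deficient cells with E2+R5020, 1650 bp (61.28, 28.8%) with E2 and 463 bp (53.41, 1.78%) with R5020. In the R5020 list this site tied for ranks 87 to 163 of 9141, so the same place stood high in that list and lower in the other lists of this line. At 442 kb, the sites were 755 bp (27.09, 84.9%) with E2+R5020, 784 bp (32.25, 70.2%) with E2 and 261 bp (53.41, 1.78%) with R5020. At 437.7 kb, they were 627 bp (31.87, 57.0%) with E2+R5020, 666 bp (33.86, 65.3%) with E2 and 202 bp (33.99, 47.9%) with R5020. These 3 regions were listed in all 3 treatments of PR-deficient cells and in reChIP. At 287.6 kb and 355.0 kb, PR-deficient cells had a site with E2 and with R5020 but not with E2+R5020. Over the whole lists, 55.5% of the E2 sites and 20.2% of the R5020 sites of this line overlapped one of E2+R5020. Absence from the E2+R5020 list was thus common. The E2 sites there were 596 bp (33.86, 65.3%) and 427 bp (29.03, 82.6%), and the R5020 sites were 339 bp (33.99, 47.9%) and 156 bp (43.7, 7.31%).

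Where these sites met, their centres lay between 0.5 and 362.5 bp apart. In the region at 355.0 kb, the centres of the reChIP site and both PR-deficient sites lay within 0.5 bp of each other, and the narrowest site, 156 bp, lay inside the others. At 287.6 kb the 3 centres lay within 7.5 bp. They were more spread at 437.7 kb (80.5 bp), 442 kb (241.5 bp) and 151 kb (362.5 bp), where wide and narrow sites met. The stretch common to all sites was 463 bp at 151 kb, 339 bp at 287.6 kb, 156 bp at 355.0 kb, 202 bp at 437.7 kb and 261 bp at 442 kb.

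**Figure D2:**
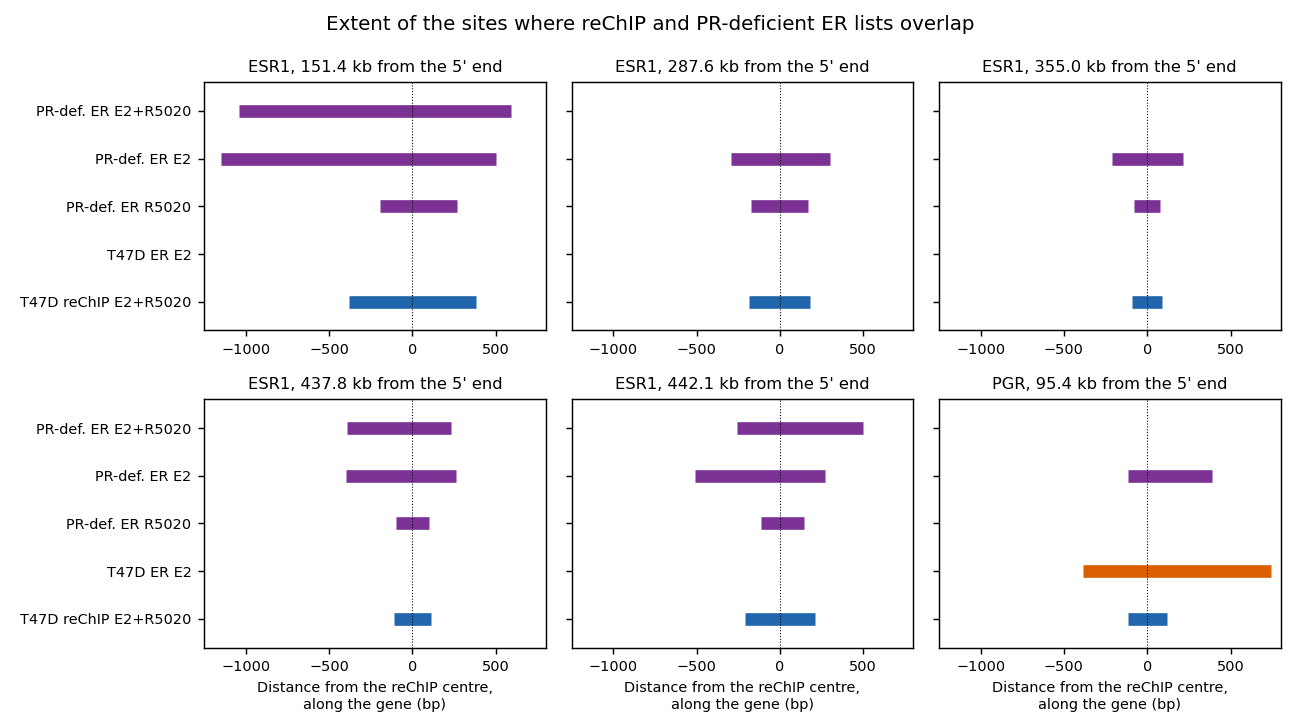
Each panel is a place where the reChIP list and a PR-deficient ER list overlap, 5 in ESR1 and 1 in PGR, and each bar is the extent of 1 listed site relative to the reChIP centre (bp along the gene, x axis), with a row per list. In ESR1 the PR-deficient R5020 sites and the reChIP sites are the narrow ones, and a T47D ER bar appears in the PGR panel alone.

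The single-ChIP sites of T47D cells in ESR1 overlapped no reChIP site. Over the whole lists, 10.3% of T47D ER and 9.72% of T47D PR sites with E2+R5020 overlapped one, and 16.3% of T47D ER sites with E2 did. With so few members, none shared is near those shares. The region chr6:151936998-151938047 lay 40.3 kb upstream of the gene, on the side of CCDC170. Whether it lay inside CCDC170 was not determined, since no hg19 annotation was used here. It held sites of 3 lists: PR-deficient ER with E2 (634 bp, score 61.28, 28.8%), T47D ER with E2+R5020 (387 bp, 42.14, 24.3%) and T47D ER with E2 (1050 bp, 32.57, 34.5%). Their centres lay within 16.0 bp, and all 3 lists come from cells given E2. The other lists from cells given E2 had no site there: PR-deficient ER with E2+R5020, T47D PR with E2 and with E2+R5020, and reChIP. Over the whole lists, 55.5% of PR-deficient ER sites with E2 overlapped one of E2+R5020. Of T47D ER sites, 2.37% with E2 and 5.16% with E2+R5020 overlapped a T47D PR site of the same treatment. Absence from the PR and reChIP lists was thus the usual case. The T47D ER E2 site of this region was the sole member of that list at ESR1. Inside the gene, T47D ER with E2+R5020 had 3 sites in a row, chr6:152220077-152220351, chr6:152220382-152220604 and chr6:152220616-152220850, with gaps of 30 and 11 bp. Their scores were 37.93, 25.28 and 59.0, the last being the highest T47D ER score in ESR1 for this treatment (7.52% of the list at or above). The same list had 1 further site 21.6 kb upstream, chr6:151956109-151956405, at 25.28, a score that 90.5% of its list reached or exceeded.

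PR was listed at 2 places in ESR1. With E2+R5020 the T47D PR site was chr6:152410970-152411236, at 26.44 (10.2% of the list at or above), 433.3 kb from the 5′ end and 13.3 kb inside the 3′ end. With E2 alone it was chr6:151993988-151994180, at 31.56 (2.36%), 16.3 kb inside the 5′ end. At that second place PR-deficient ER with R5020 had the site chr6:151993911-151994168, which sat at the lowest score of its list, 29.13, as did every score tied with it down to rank 9141. The site nearest to the 5′ end of ESR1 in any list was this pair. The remaining member, PR-deficient ER with E2+R5020 at chr6:151814744-151815818, lay 162.5 kb upstream (27.09, 84.9%). Its place relative to CCDC170 was not determined.

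At PGR, the 10 members fell into 8 regions and came from 6 of the 10 lists. The gene body held 5, the 200 kb upstream held 4 and the 200 kb downstream held 1. PR-deficient ER gave 1, T47D ER 4, T47D PR 3 and reChIP 2. In PR-deficient cells the counts were 0 with E2+R5020, 1 with E2 and 0 with R5020, beside 3, 1 and 0 for T47D ER, 2, 0 and 1 for T47D PR, and 2 for reChIP. Of 6173 tiles as wide as the PGR window, the share holding a site was 35.0%, 41.6% and 35.5% for the PR-deficient lists, 78.6%, 30.9% and 27.2% for the T47D ER lists, 45.4%, 41.1% and 31.9% for the T47D PR lists, and 44.2% for reChIP, in that order of treatments. Tiles with at least as many sites made up 41.7% for the 3 T47D ER sites of E2+R5020, 27.7% for the 2 T47D PR sites of E2+R5020 and 22.5% for the 2 reChIP sites, so PGR was not set apart by the number of its sites.

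**Figure D3:**
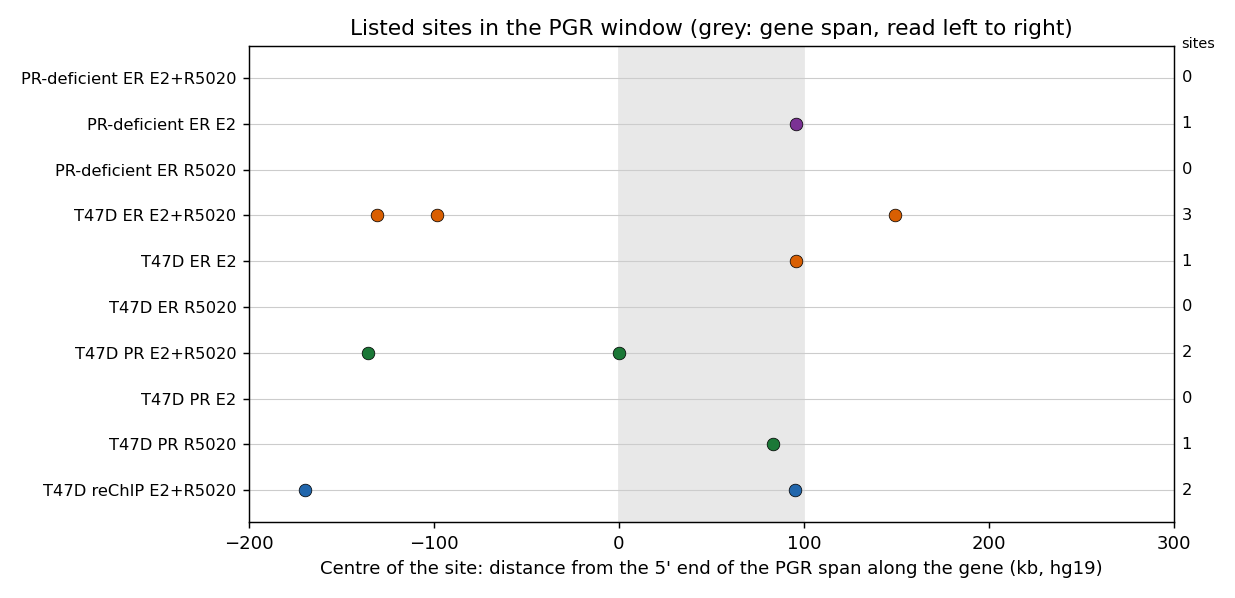
Each point is a listed site in the PGR window, placed by the distance of its centre from the 5′ end of the hg19 gene span along the gene (kb, x axis; PGR is on the minus strand), with a row for each of the 10 lists and its number of sites at the right. The sites of 3 lists line up near 95 kb, inside the 3′ end of the gene, and the others stand alone.

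A single place in PGR was listed more than once. In the region chr11:100904377-100905506, about 95.6 kb from the 5′ end and 4.6 kb inside the 3′ end, the T47D ER site with E2 was 1130 bp wide and scored 166.92, rank 43 of 4014 (1.07%). With ties counted against a member, it stood highest of all 42 within its own list. By the share of the list strictly above, it stood at 1.05%, below the 2 PR-deficient R5020 sites of ESR1 at 0.941%. In PR-deficient cells ER with E2 had chr11:100904731-100905236 there, 506 bp wide with a score of 29.03 (82.6% of the list at or above). The reChIP site chr11:100905003-100905239, 237 bp wide, scored 34.64, which 98.5% of the reChIP list reached or exceeded. The place was thus near the top of 1 list and near the bottom of the other 2. The centres spread over 179.5 bp and 234 bp were common to all 3. No single ER ChIP with E2+R5020 or R5020 had a site there in either line, and no PR list held one. Over the whole lists, 19.5% of T47D ER sites of E2 overlapped an ER site of E2+R5020. For R5020 the share was 6.35%, and for PR with E2 it was 2.37%, so absence from these T47D lists was the usual case. In PR-deficient cells, 55.5% of E2 sites overlapped one of E2+R5020 and 14.7% one of R5020.

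The 3 PR sites at PGR overlapped no ER site. Over the whole lists, 8.07% of T47D PR sites with E2+R5020 overlapped a T47D ER site of that treatment, and 7.66% with R5020 did. With so few sites, none shared is near those shares. With E2+R5020 T47D PR had chr11:101000241-101000441, from 103 to 303 bp past the 5′ end, the site nearest to the 5′ end of either hg19 span. Its score was 15.42, the lowest kept in that list, which 37.8% of its sites shared. The other PR site of E2+R5020, chr11:101136353-101136618, lay 135.9 kb upstream at the same lowest score. With R5020 alone T47D PR had chr11:100916949-100917094, 83.5 kb from the 5′ end, at 29.48 (38.2%), the sole member from the T47D single ChIPs with R5020 alone. T47D ER with E2+R5020 had chr11:101098773-101098958 at 25.28 and chr11:101131196-101131397 at 29.5, at 98.3 and 130.8 kb upstream, and chr11:100851247-100851413 at 33.71, 49.0 kb past the 3′ end. The second reChIP site, chr11:101170173-101170470, scored 69.29 (34.5%) at 169.8 kb upstream, towards TRPC6, and overlapped no single-ChIP site.

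Within their own lists the members spanned the whole range of scores. In the top 10% stood 14 members, of which 8 were the ESR1 reChIP sites and 3 were PR-deficient ER sites of R5020 in ESR1. The other 3 were the T47D ER site of E2 in PGR, 1 T47D ER site of E2+R5020 in ESR1 and the T47D PR site of E2 in ESR1. The 3 PR-deficient sites of R5020 lie at places of ESR1 reChIP sites. As stated above, sites at those places and the 8 reChIP sites are not shown to measure receptor binding to the gene. At the lowest score of their list stood 3 members, 2 of T47D PR at PGR and 1 of PR-deficient ER at ESR1. Both reChIP sites of PGR, at 34.5% and 98.5%, stood lower than all 8 of ESR1. Width followed the list: of 13 members wider than 500 bp, 12 came from the PR-deficient E2+R5020, PR-deficient E2 and T47D ER E2 lists, which gave 13 members in all.

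**Figure D4:**
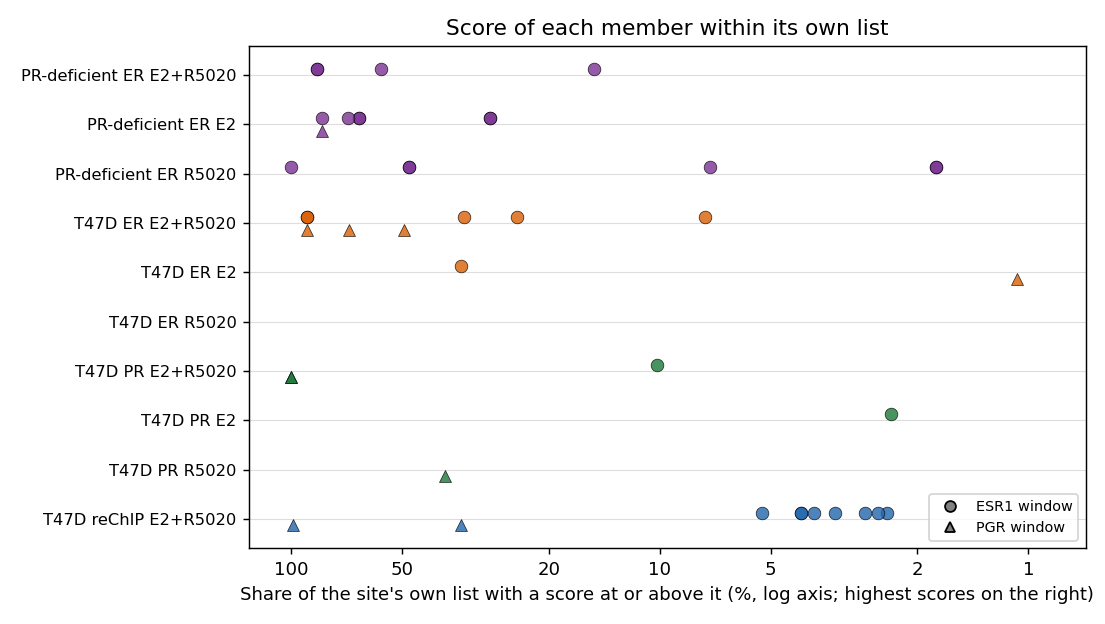
Each symbol is 1 of the 42 members (circles ESR1, triangles PGR), placed by the percentage of its own list with a score at or above its own (x axis, log scale, highest scores on the right), with a row per list; darker symbols are tied members. The 8 reChIP sites of ESR1 lie between 2.41% and 5.29%, and the T47D ER E2 site of PGR lies at 1.07%. The ESR1 reChIP sites, and PR-deficient sites at the same places, are not shown to measure receptor binding to the gene.

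For each pair of lists, members were counted as shared when a site of the second list overlapped them by at least 1 bp, beside the share over the whole list. Between the lines, PR-deficient ER shared 0 of 4 members with T47D ER under E2+R5020, where 14.8% of the whole list was shared, and 0 of 6 under R5020, where 3.97% was. Under E2 it shared 2 of 7 (29.0% of the whole list), and these were both T47D ER members, 2 of 2 (54.9%). This count was 1 at 50% of both sites and 1 with lists of equal length. The 2 are the region 40.3 kb upstream of ESR1 and the one near the 3′ end of PGR.

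At an overlap of 1 bp, PR-deficient members shared between E2+R5020 and E2 were no more frequent than sites of the whole lists. Members shared with R5020 were more frequent at that setting. The E2+R5020 list shared 3 of 4 members with E2 (75.4% of all its sites), and the E2 list shared 3 of 7 with it (55.5%). The E2+R5020 list also shared 3 of 4 with R5020 (25.1%), and the R5020 list shared 3 of 6 with it (20.2%). The E2 list shared 5 of 7 with R5020 (14.7%), and the R5020 list shared 5 of 6 with E2 (15.4%). All 5 of these, and the 3 that E2+R5020 shared with R5020, lie in the ESR1 regions where reChIP sites were found. As stated above, sites in those regions are not shown to measure receptor binding to the gene. The E2 list's 7 members include 1 at PGR. The 5 fell to 1 when each site had to cover 50% of the other and to 1 with every list limited to its 4014 highest scores. For E2+R5020, the 3 members shared with R5020 fell to 0 at 50% of both, and the 3 shared with E2 fell to 1 with lists of equal length. In T47D cells, ER with E2+R5020 shared 1 of 8 members with E2 (4.47%; 0 at 50% of both), the E2 list shared 1 of 2 with it (19.5%), ER with E2+R5020 shared 0 of 8 with R5020 (4.98%), and ER with E2 shared 0 of 2 with R5020 (6.35%). T47D PR shared 0 of 3 members of E2+R5020 with E2 (8.41%), 0 of 3 with R5020 (6.71%), and 0 of 1 member of E2 with R5020 (2.11%). With so few T47D members, a count of 0 is near what the whole-list shares give.

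Between the ER and PR single ChIPs of T47D cells no member was shared. ER shared 0 of 8 members with PR under E2+R5020 (5.16% of the whole list) and 0 of 2 under E2 (2.37%). None of the 10 reChIP members overlapped a T47D ER site (19.5%) or a T47D PR site (12.2%) of the same E2+R5020 treatment. The pairs that follow were added after the data had been seen. Of the 10 reChIP members, 3 overlapped PR-deficient ER with E2+R5020 (13.7%), 6 overlapped PR-deficient ER with E2 (15.6%), 5 overlapped PR-deficient ER with R5020 (8.35%) and 1 overlapped T47D ER with E2 (7.21%). Seen from the other list, 3 of 4 PR-deficient members with E2+R5020 (20.3%), 6 of 7 with E2 (17.0%), 5 of 6 with R5020 (9.13%) and 1 of 2 T47D ER members with E2 (16.3%) lay at a reChIP site. The T47D PR site of E2 in ESR1, 1 of 1 (3.01%), overlapped PR-deficient ER with R5020, 1 of 6 members of that list (2.67%). At 50% of both sites the reChIP members shared with PR-deficient ER fell to 1 with E2+R5020 and to 2 with E2, and the 1 shared with T47D ER with E2 fell to 0. With lists of equal length, 1 was counted as shared with PR-deficient E2, and none with T47D ER with E2 or between T47D PR with E2 and PR-deficient R5020. The 5 shared with PR-deficient R5020 stayed 5 under both settings. These members are few, lie in 2 genes and were picked out after the overlap had been seen, so the counts describe these lists only. The limit given above for the ESR1 reChIP sites holds here too.

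The outermost members lay 169.8 kb upstream and 49.0 kb downstream of PGR and 162.5 kb upstream of ESR1. Beyond 200 kb, the nearest upstream site of PGR was a reChIP site 206.5 kb away, chr11:101206883-101207170 at 43.31, and the nearest downstream site was 331.1 kb away, in the T47D PR list of E2+R5020. For ESR1 the nearest were a reChIP site 206.0 kb upstream, chr6:151771649-151771925 at 34.64, and a T47D ER site of E2+R5020 470.0 kb downstream. Between 200 and 500 kb lay 20 further sites upstream and 5 downstream of PGR, and 6 upstream and 1 downstream of ESR1.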

How the data were processed

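The data were 26 groups of 1 ChIP-seq library each, 10 of them with a deposited list of called sites and 16 without, which were not analysed here as lists. Per the submitters' processing notes, Bowtie2 and MACS had been used with hg19, in versions and with settings not given in the sources used here. The vehicle library had been subtracted per the labels, and IgG too for reChIP. Each deposited list gives chromosome, start, end, length and a score, the authors' own value of unstated unit. Scores were whole multiples of 1 step per list (within 0.05), and depth is unknown.

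Members were sites overlapping a gene span plus 200 kb by 1 bp or more. Genome tiles of the same width served as background for counts of sites, and whole-list shares as background for overlap. No test was made, since each group holds 1 library. The named sites were the highest-scoring member of each list at each gene, regions of 3 or more lists, sites nearest to gene ends, and all reChIP and PR members; the remaining members were then added for completeness. Promoters came from RefSeq (GRCh38.p14), and no coordinates were converted. Motifs in the sites and their exons were not analysed, since no hg19 sequence or annotation was used here. Members, lists and pairs were chosen with earlier results of these data known. The overlap code was tested on simulated sites. Python 3.11.15, NumPy 2.4.6, pandas 2.3.3 and matplotlib 3.10.9 were used.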

Additional observations from a re-analysis of the deposited data

How the results depend on the processing

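No paired analysis was possible because there is 1 library per group, and for the same reason no replicate could be left out. The 10 sites in the PGR window became 5 in the gene span alone, 35 with a flank of 500 kb and 3 with every list limited to its 4014 highest scores. The shared members summed to 14 over the fixed pairs, where 1 member can count in more than 1 pair. This sum became 5 when both sites had to be covered to 50% or more, which sites of unlike width cannot reach. It became 6 with lists of equal length, which keep fewer sites. With 1 mismatch allowed there was 1 motif match, against 0. The other 21 of 27 recomputed values for these 8 summary results stayed within 1.5 times the reported value, and so did 169 of the values for single lists and pairs, while 39 moved more, mostly with a wider flank (11) or lists of equal length (13). With lists of equal length, the PR-deficient members of ESR1 numbered 2 with E2+R5020 and 2 with E2, and those of T47D ER with E2+R5020 numbered 2. Called lists limit what can be seen: a place missing from a list may have been bound below its threshold, and read depth is unknown.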
